A study of Mus musculus with 8 samples.

Results

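The fibrillar collagen genes Col1a1, Col1a2, Col2a1, Col3a1, Col5a1, Col5a2, Col5a3 and Col11a1 were followed in the border zone of infarcted and sham-operated mouse hearts. They are 8 of the 35299 loci in the deposited table. The members were chosen by name, and each was found as the single locus whose exon and intron lengths matched that gene. None of these loci held another gene. The MI group was 4 adult C57BL/6J mice with a myocardial infarct, an area of heart muscle killed by loss of its blood supply. The Sham group was 4 C57BL/6J mice after a sham operation. All animals were 12 weeks old, wild type as far as the labels state, and their tissue was taken 2 weeks after surgery. Long RNA selected for poly(A) tails was sequenced, and the comparison asks which RNAs differ between infarcted and sham hearts. Groups follow the sample titles and the stated treatment. The source field of the MI samples and some descriptions name the other group. Sham titles also carry a reanalysis remark that MI titles lack, so an effect of origin and an effect of infarction cannot be told apart.

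Fibrillar collagens are the rod-shaped proteins that assemble into the cross-striated fibrils of connective tissue. Each molecule is a triple helix of 3 chains. The chains are made as procollagens, modified and folded in the endoplasmic reticulum, trimmed outside the cell and then cross-linked. Types I and III form most of the collagen network of the heart and of the scar that replaces dead muscle, where fibroblasts are the main source. Type V starts fibrils and limits their width. Types II and XI are best known as the fibril collagens of cartilage.

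What the 8 genes share in their sequence is the repeat that builds the helix, a glycine followed by a pair of residues that vary. In the deposited annotation 208 of their 446 inner exons (46.6%) were 54 bases long, against 0.535% of 161514 inner exons in other annotated loci. An inner exon length divisible by 9, the bases of a glycine triplet, was found in 83.0% of the members' inner exons and in 13.8% of the others. The coding sequences of GENCODE release M21 (GRCm38) also held 208 coding exons of 54 bases in these genes, and 207 of them opened in frame with a glycine codon and repeated it every 9 bases. The longest unbroken run of such triplets was between 337 and 344 in each gene. The first such exon of 6 members is printed here to show this repeat and the bases between its glycines. Capitals mark the 6 glycine codons of the repeat in each exon, 9 bases apart. Glycine codons at other places in a triplet, as in Col1a1, Col5a1 and Col11a1, are left in lower case.
Col1a1, exon 8, chr11:94939904-94939957, plus strand: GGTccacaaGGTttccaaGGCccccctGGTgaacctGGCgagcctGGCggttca
Col1a2, exon 8, chr6:4515481-4515534, plus strand: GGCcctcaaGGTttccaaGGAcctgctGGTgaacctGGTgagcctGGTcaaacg
Col3a1, exon 6, chr1:45325360-45325413, plus strand: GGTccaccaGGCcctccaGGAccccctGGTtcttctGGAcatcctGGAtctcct
Col5a1, exon 15, chr2:27965251-27965304, plus strand: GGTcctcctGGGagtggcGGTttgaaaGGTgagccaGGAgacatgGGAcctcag
Col11a1, exon 15, chr3:114108281-114108334, plus strand: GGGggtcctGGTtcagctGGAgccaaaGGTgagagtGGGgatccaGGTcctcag
Col2a1, exon 6, chr15:97998545-97998598, minus strand: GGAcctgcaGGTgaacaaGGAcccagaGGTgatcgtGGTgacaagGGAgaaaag
These first exons, numbered 6, 8 or 15, were not matched by their place in the helix. Those of Col1a1 and Col1a2, both exon 8, had equal bases at 42 of 54 positions, the most of any pair among the 8 genes. No window of 50 bases was shared by the full transcripts of any of the 28 pairs of genes.

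The libraries held 165.5M to 190.2M reads in loci in MI and 108.3M to 160.7M in Sham. The mitochondrial genome took 23.8 to 26.1% of them in MI and 29.2 to 32.3% in Sham. Every deposited value was a whole number of reads divided by a size factor of its library. A single read was worth 0.663 to 0.873 normalised reads in MI and 1.14 to 1.58 in Sham, and a count of 0 allows up to 3 reads. Such floors and the counting intervals below cover counting error only. The least deep MI library thus held more reads than the deepest Sham library. With reads thinned to equal depth all 8 members were still higher in MI.

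All 8 fibrillar collagen genes rose in MI in the test across all loci (limma with an intensity trend on log2(normalised reads + 1), Benjamini-Hochberg adjusted p under 0.05). The same call was made for 20.8% of 19186 loci, and 40.9% were called in either direction. The log2 difference of each of the 8 genes was also at least 1, a call made for 9.04% of loci. In each of the 8 genes the lowest MI library lay above the highest Sham library, which held for 19.7% of the loci tested. The median log2 difference of the 8 genes was 3.14, against -0.02 over all loci tested. Col2a1 passed the minimum mean of 10 normalised reads only through its MI values, so its call is no separate support. The genes had been chosen with earlier results of these data known. In tissue RNA a change in the number of cells that express a gene and a change in RNA per cell cannot be told apart.

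**Figure D1:**
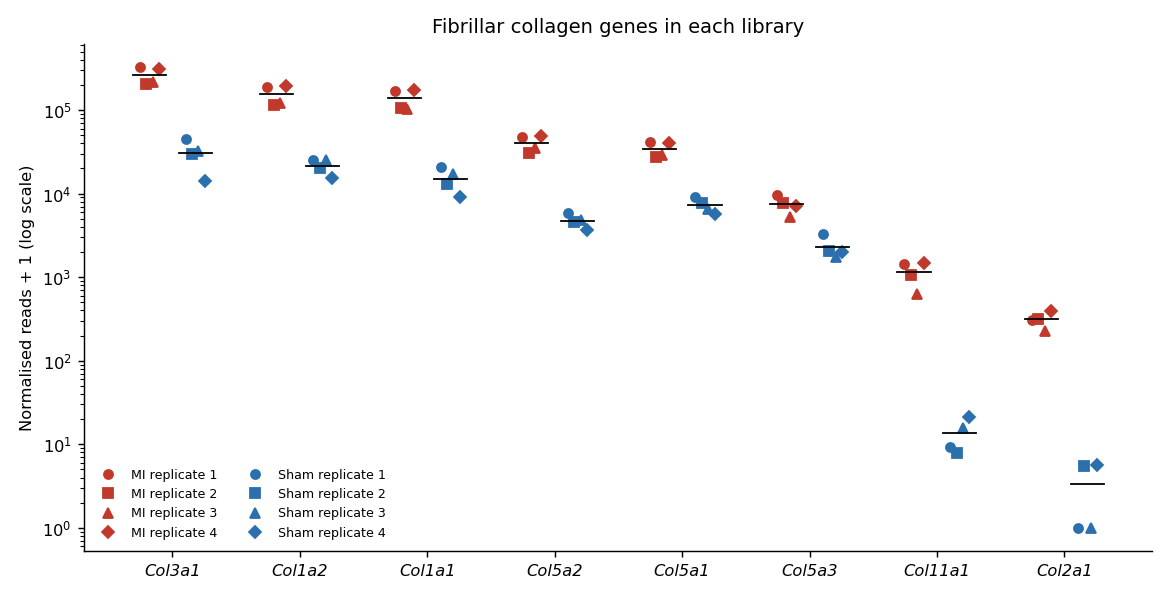
Normalised reads plus 1 on a log scale for each fibrillar collagen gene, with 4 MI libraries (red, left) and 4 Sham libraries (blue, right) per gene and the mean as a line. No gene has an MI library at or below a Sham library, and the gap is widest for Col11a1 and Col2a1.

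Type I collagen, the main fibril protein of scar, is built from the chains of Col1a1 and Col1a2. Col1a1 (mm9 chromosome 11, 94797312 to 94814358, plus strand, 51 exons in the reference transcript) encodes its alpha 1 chain. Its normalised reads in MI replicates 1 to 4 were 168101, 106974, 102920.0 and 176069.8, against 21094, 13033, 16969 and 9157 in Sham replicates 1 to 4. The log2 difference was 3.22 ± 0.26 (moderated SE, here and below; adjusted p = 1.2e-05), and the MI mean was 9.20 times the Sham mean. Replicates 1 and 4 were the high MI libraries, and Sham replicate 4 was the lowest Sham library. Col1a2 (chromosome 6, 4455093 to 4491543, plus strand, 52 exons) encodes the alpha 2 chain. Its MI values were 186427, 113567, 122014 and 193452, against 25169, 20082, 25318 and 15258 in Sham (log2 difference 2.83 ± 0.21, adjusted p = 8.4e-06). Replicates 1 and 4 were again the high MI libraries.

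Col3a1 (chromosome 1, 45368194 to 45408061, plus strand, 51 exons) encodes the only chain of type III collagen, which forms thin fibrils together with type I. It stood at 327716, 207232, 214022 and 308842 normalised reads in the MI libraries, against 44691, 29779.9, 32836 and 14291 in the Sham libraries. The log2 difference was 3.20 ± 0.30 (adjusted p = 3.1e-05). Its Sham values spread more than those of Col1a1 and Col1a2, with a coefficient of variation of 23.7% in MI and 41.2% in Sham.

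Type V chains come from Col5a1, Col5a2 and Col5a3. Type V collagen sits inside type I fibrils. Col5a1 (chromosome 2, 27736579 to 27895033, plus strand, 66 exons), the alpha 1 chain, had 41556, 27168, 28893 and 40602 normalised reads in MI, against 9084, 7663, 6494 and 5715 in Sham (log2 difference 2.25 ± 0.17, adjusted p = 1.02e-05). Col5a2 (chromosome 1, 45431176 to 45560127, minus strand, 54 exons), the alpha 2 chain, had 47730.2, 30573, 34954 and 48827 in MI, against 5900.4, 4609, 4869 and 3688 in Sham (3.08 ± 0.17, adjusted p = 1.66e-06). Its locus ends 23114 bases from the end of Col3a1 on the other strand, with 0 loci between them. Col5a3 (chromosome 9, 20572414 to 20619478, minus strand, 67 exons), a less widespread alpha 3 chain, had 9593, 7737, 5283 and 7122 in MI, against 3275, 2077, 1727 and 1993 in Sham. Its log2 difference, 1.72 ± 0.21 (adjusted p = 1.4e-04), was the smallest of the 8 genes. Here MI replicate 1 and Sham replicate 1 were the highest of their groups, while MI replicate 3 and Sham replicate 3 were the lowest.

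Both genes best known from cartilage were counted in every infarcted heart and were near 0 in Sham hearts. Col11a1 (chromosome 3, 113733458 to 113923244, plus strand, 67 exons) encodes the alpha 1 chain of type XI collagen, a close relative of Col5a1. Its normalised reads were 1444, 1048, 631 and 1462 in MI, against 8.36, 6.83, 14.8 and 20.5 in Sham (log2 difference 6.44 ± 0.36, adjusted p = 1.55e-06). It rested on 766 to 2178 reads in each MI library and on 6 to 13 reads in each Sham library. Reads were also pooled over each group and divided by the summed size factors of its libraries. The ratio of MI to Sham was then 96.0, with a 95% counting interval of 70.1 to 135. Col2a1 (chromosome 15, 97805402 to 97835076, minus strand, 54 exons) encodes the chain of type II collagen. It had 309.5, 315, 227 and 396 normalised reads in MI, against 0, 4.56, 0 and 4.73 in Sham, from 276 to 467 reads per MI library and 7 reads over all Sham libraries. The log2 difference was 7.02 ± 0.59 (adjusted p = 1.81e-05), and it depended on the pseudocount because the Sham values are near 0. The pooled ratio was 143 with a 95% counting interval of 69.4 to 357. Among 19186 loci, Col2a1 and Col11a1 ranked 3 and 4 by log2 difference with a pseudocount of 1. Their order rests on that pseudocount, since with a pseudocount of 5 the log2 difference was 5.49 for Col2a1 and 6.02 for Col11a1. Loci on the other strand overlap Col5a1 and Col11a1, and the strand of the reads is not known, but neither exceeded 1.75 normalised reads in any library. For Col11a1 the Sham library with the least type I and III signal, replicate 4, was the highest in normalised reads. Sham replicates 3 and 4 held 13 reads each, where a read was worth 1.14 and 1.58 normalised reads.

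**Figure D2:**
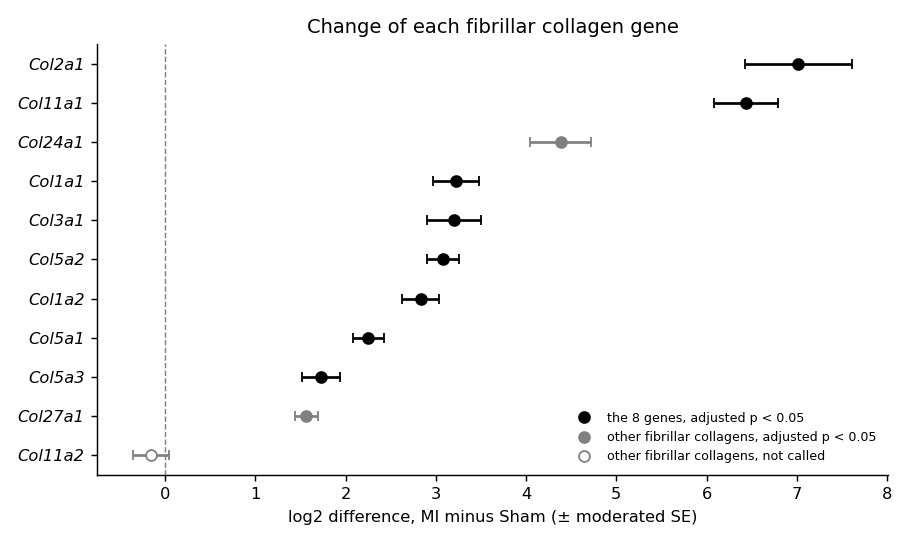
Log2 difference, MI minus Sham, with its moderated standard error for the 8 genes (black) and the other fibrillar collagen genes (grey, open where not called). The values of the 8 genes run between 1.72 for Col5a3 and 7.02 for Col2a1.

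The remaining fibrillar collagen genes did not all move the same way. Col24a1, a minor fibrillar collagen, averaged 328 ± 129 normalised reads in MI and 14.1 ± 4.50 in Sham (mean ± SD, n = 4 each; log2 difference 4.38 ± 0.34). Col27a1, known from cartilage, averaged 2260 ± 373 in MI and 758 ± 80.5 in Sham (1.57 ± 0.13). Both passed the test as higher. Col11a2, which encodes the partner chain of Col11a1 in cartilage collagen XI, averaged 346 ± 49.5 in MI and 394 ± 101 in Sham (-0.16 ± 0.20, adjusted p = 0.565). Its groups overlapped, while those of Col11a1 did not.

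The 8 genes differed widely in level. Per kilobase of reference transcript, Col3a1 averaged 36411 ± 8631 normalised reads in MI and 4186 ± 1723 in Sham (SD, n = 4 each). Col1a2 followed with 29917 ± 8146 in MI and 4172 ± 933 in Sham, and Col1a1 with 22494 ± 6322 in MI and 2446 ± 833 in Sham. Neighbours among these 3 genes had overlapping ranges in each group, and Col3a1 stood above Col1a2 in 4 of 4 MI libraries and 2 of 4 Sham libraries. Col1a2 stood above Col1a1 in every library by this length. Counted over the union of all exons of each locus, which is 10492 bases for Col1a2 and 6158 for Col1a1, that order turned round. Below them came Col5a2 at 6126 ± 1383 per kilobase in MI and 721 ± 138 in Sham, Col5a1 at 2509 ± 550.2 in MI and 526 ± 107 in Sham, and Col5a3 at 1221 ± 292 in MI and 373 ± 113 in Sham. Col11a1 had 86.7 to 201 per kilobase in MI and 0.939 to 2.82 in Sham, and Col2a1 had 54.9 ± 12.1 in MI and 0.408 ± 0.472 in Sham. The order of the 8 means was the same in MI and Sham. The ranges of Col5a2 and Col5a1, and of Col5a1 and Col5a3, overlapped in Sham but not in MI.

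The 8 genes summed to 782875, 494614, 508944 and 776773 normalised reads in MI replicates 1 to 4, against 109222, 77255, 88226 and 50127 in Sham replicates 1 to 4. The MI mean was 7.89 times the Sham mean. They took 0.463 to 0.815% of all reads outside the mitochondrial genome in MI and 0.0420 to 0.0946% in Sham. Of their summed signal per kilobase, Col3a1 held 37.0 ± 1.12% in MI and 32.7 ± 5.08% in Sham. Col1a2 held 30.1 ± 0.898% in MI and 34.3 ± 3.79% in Sham, and Col1a1 22.6 ± 0.981% in MI and 19.5 ± 1.14% in Sham. The shares of Col5a1 were 2.56 ± 0.103% in MI and 4.39 ± 0.848% in Sham, and those of Col5a3 were 1.26 ± 0.304% in MI and 3.12 ± 0.896% in Sham. Col1a1 held a larger share in every MI library than in any Sham library, and Col5a1 and Col5a3 a smaller one. The share of Col3a1 was lowest in Sham replicate 4, at 25.5%.

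**Figure D3:**
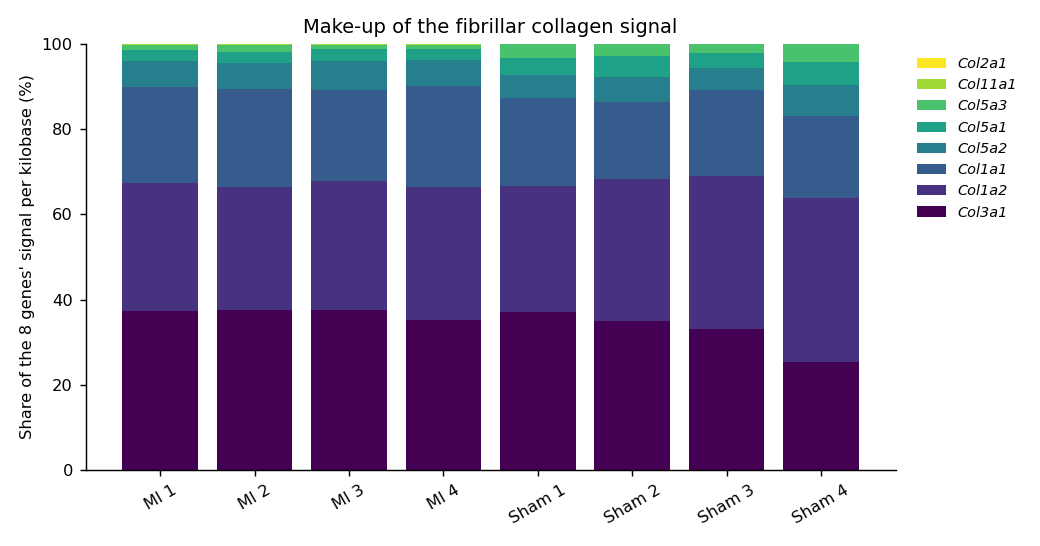
Share of each gene in the summed signal per kilobase of reference transcript of the 8 fibrillar collagen genes, with 1 bar per library, MI left of Sham. Col3a1, Col1a2 and Col1a1 fill most of every bar, and the segments of Col5a1 and Col5a3 are thinner in the MI libraries.

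Whether the genes rose by different amounts was tested on 8 ratios of normalised reads plus 1 within each library. Each test was a 2-sided exact permutation test over the 70 splits of 4 and 4 libraries, where the smallest possible p is 0.0286, with Benjamini-Hochberg adjustment over the 8 ratios. Col1a1 rose more than Col1a2. Their log2 ratio Col1a2/Col1a1 was 0.15, 0.09, 0.25 and 0.14 in MI, against 0.25, 0.62, 0.58 and 0.74 in Sham (difference -0.39, exact p = 0.0286, adjusted p = 0.0457). The highest MI value and the lowest Sham value lay close together, at 0.246 and 0.255. The ratio Col3a1/Col1a1 was 0.96, 0.95, 1.06 and 0.81 in MI, against 1.08, 1.19, 0.95 and 0.64 in Sham. It did not pass (difference -0.02, exact p = 0.914), and its groups overlapped.

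Type V chains changed by unequal amounts. The log2 ratio Col5a1/Col1a1 was -2.02, -1.98, -1.83 and -2.12 in MI, against -1.22, -0.77, -1.39 and -0.68 in Sham (difference -0.97, exact p = 0.0286, adjusted p = 0.0457), so Col5a1 rose less than Col1a1. The ratio Col5a2/Col5a1 was 0.20, 0.17, 0.27 and 0.27 in MI, against -0.62, -0.73, -0.42 and -0.63 in Sham (difference 0.83, same p-values). In these normalised reads, not set per length, Col5a2 thus stood above Col5a1 in all MI libraries and below it in all Sham libraries. Per kilobase of reference transcript the ratio was 2.44 ± 0.0857 in MI and 1.38 ± 0.131 in Sham. Col5a3/Col5a1 was -2.11, -1.81, -2.45 and -2.51 in MI, against -1.47, -1.88, -1.91 and -1.52 in Sham, and did not pass (difference -0.53, exact p = 0.0857, adjusted p = 0.114).

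Col11a1 rose more than both. Its log2 ratio to Col5a1 was -4.85, -4.69, -5.52 and -4.79 in MI, against -9.92, -9.93, -8.69 and -8.05 in Sham (difference 4.19, exact p = 0.0286, adjusted p = 0.0457). The difference of its ratio to Col1a1 was 3.21, with the same p-values. Col2a1/Col11a1 averaged -1.82 ± 0.31 in MI and -2.40 ± 1.53 in Sham (SD, n = 4 each; exact p = 0.429). That ratio rests on 0 to 4 reads of Col2a1 in each Sham library. With 1 MI library left out the adjusted p of the 5 ratios that passed lay between 0.0571 and 0.0914, for each of the 4 MI libraries, while the differences kept their sign.

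**Figure D4:**
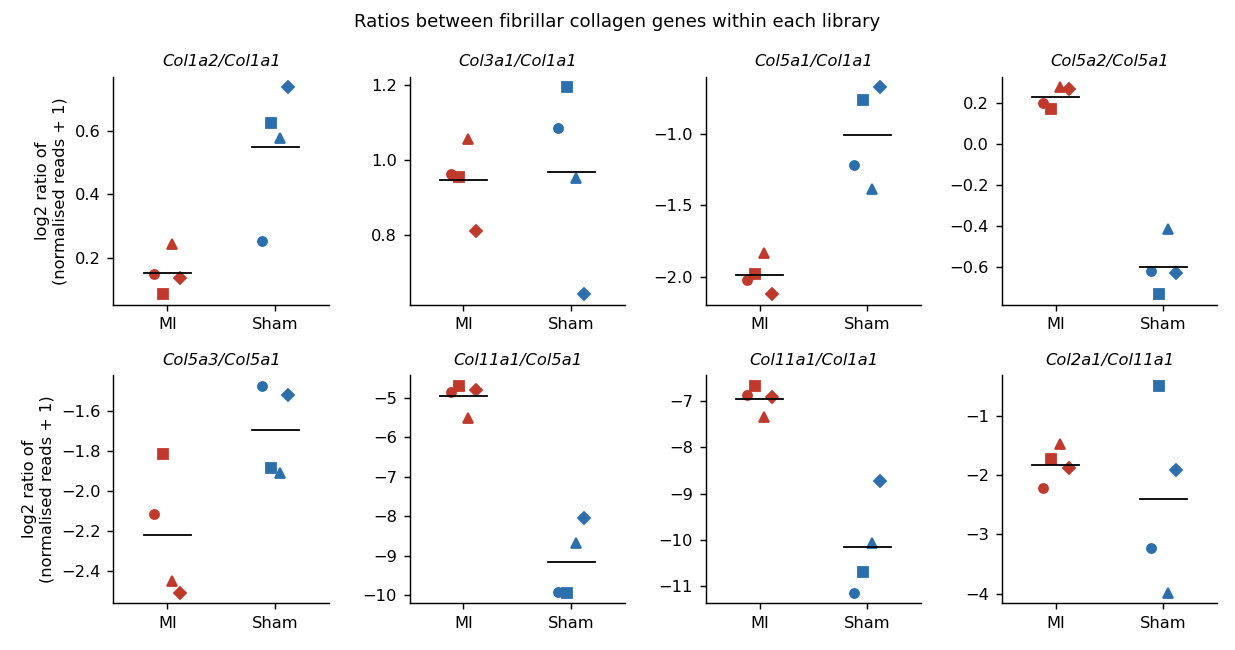
Log2 ratio of normalised reads plus 1 between pairs of fibrillar collagen genes in each library, MI (red) left of Sham (blue), with the group mean as a line and a separate vertical scale per panel. MI and Sham values are apart for Col1a2/Col1a1, Col5a1/Col1a1, Col5a2/Col5a1, Col11a1/Col5a1 and Col11a1/Col1a1.

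Within the groups, the abundant members rose and fell together from animal to animal. In MI the log2 values of Col1a1 lay 0.32 and 0.39 above the group mean in replicates 1 and 4 and at -0.33 and -0.38 in replicates 2 and 3. Col5a2 followed, at 0.26 and 0.30 in MI replicates 1 and 4 and at -0.38 and -0.18 in replicates 2 and 3. Over the 8 libraries, the deviations of Col1a1, Col1a2, Col3a1, Col5a1, Col5a2 and Col5a3 from their group means correlated with the mean of the other 5 at r between 0.558 for Col5a3 and 0.964 for Col1a1. All these values share the libraries and their scaling. As a description, the gene with deviations most like the mean of all 8 members was Fn1, fibronectin (r = 0.974 over 8 libraries, among 12578 named genes with a mean of at least 50). Next came Ccdc88b (r = 0.957), 5830432E09Rik (r = 0.955), Taok3 (r = 0.950) and Dagla (r = 0.949). That order rests on the Sham reads of Col2a1 and Col11a1. Without these 2 members Fn1 ranked 282 (r = 0.835), an alternative chosen after the values were seen.

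Promoter sequence was matched for 5 of the 8 genes in RefSeq (GRCm38.p6). Because the members rose together, the 250 bases before the start were searched on both strands for 4 short motifs. The CCAAT box, bound by the factor NF-Y, was found in 3 of the 5 promoters and in 33.8% of 32851 promoters. The GC box bound by Sp1, spelled GGGCGG, was found in 4 of 5 and 32.7%. A Smad-type element, spelled CAGAC, was found in 4 of 5 and 42.2%. The TATA box, searched only as the string TATAAA at any position, was found in 1 of 5 and 12.4%. That match, in Col3a1, began 117 bases before the start. None of these matches overlapped another. The promoters shown were picked because they belong to the genes of highest level, Col3a1 and Col1a2, and of largest rise among those matched, Col11a1. Capitals mark matches, on either strand, to the TATA box, the CCAAT box and the GC box.
Col1a2, chr6:4505368-4505617, plus strand: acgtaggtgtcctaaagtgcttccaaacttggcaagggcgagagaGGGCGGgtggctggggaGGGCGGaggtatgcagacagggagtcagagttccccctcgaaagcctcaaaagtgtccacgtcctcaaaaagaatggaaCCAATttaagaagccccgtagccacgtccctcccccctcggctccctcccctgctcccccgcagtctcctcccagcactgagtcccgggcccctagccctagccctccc
Col11a1, chr3:114030290-114030539, plus strand: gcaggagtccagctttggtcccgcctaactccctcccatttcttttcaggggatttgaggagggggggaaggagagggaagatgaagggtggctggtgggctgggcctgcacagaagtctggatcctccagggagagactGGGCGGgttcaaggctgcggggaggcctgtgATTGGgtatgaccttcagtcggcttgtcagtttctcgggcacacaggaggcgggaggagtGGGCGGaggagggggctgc
Col3a1, chr1:45311288-45311537, plus strand: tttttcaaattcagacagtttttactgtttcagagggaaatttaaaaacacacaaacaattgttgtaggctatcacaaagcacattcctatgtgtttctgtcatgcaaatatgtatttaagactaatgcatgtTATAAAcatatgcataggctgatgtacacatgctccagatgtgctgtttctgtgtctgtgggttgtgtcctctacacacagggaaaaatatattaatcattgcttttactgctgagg
Col1a2 and Col11a1 each hold 1 CCAAT and 2 GGGCGG matches, while Col3a1 holds neither. Its 250 bases are 35.2% G or C, against 62.0% in Col1a2 and 62.4% in Col11a1.

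Genes that fold, trim, bind and cross-link fibrillar collagen were followed as lists, each described by its counts beside the 20.8% of all loci called higher and the 20.1% called lower. Of 17 tested genes of chain modification and folding 13 rose and 2 fell (median log2 difference 0.49). P4ha3, a catalytic subunit of collagen prolyl 4-hydroxylase, rose most, with 494 ± 141 normalised reads in MI and 17.0 ± 14.2 in Sham (log2 difference 5.20 ± 0.58). P3h2, a prolyl 3-hydroxylase (0.93 ± 0.16), and Plod2, the lysyl hydroxylase of telopeptides (0.73 ± 0.09), followed. P3h4, a helper of lysyl hydroxylation, fell (-0.51 ± 0.08), as did Tmem38b, an endoplasmic reticulum potassium channel (-0.33 ± 0.08). The call of Tmem38b ended with both scalings to a library total. Serpinh1, the collagen chaperone HSP47, averaged 33159 ± 4399.8 in MI and 22321 ± 4558 in Sham (0.58 ± 0.14, outside the naming rule).

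In export and propeptide removal 7 of 11 genes rose and 1 fell (median 0.60). Adamts2, the main N-propeptidase of procollagen, averaged 10398 ± 1779.5 in MI and 2439 ± 325 in Sham (2.09 ± 0.13). Tll1, a tolloid protease related to the C-propeptidase Bmp1, rose (1.66 ± 0.27), and so did Bmp1 itself (1.22 ± 0.10, outside the naming rule). Their relative Tll2 fell (-1.37 ± 0.23). All 5 lysyl oxidases, which cross-link collagen, rose (median 2.25). Lox averaged 13165 ± 3553 in MI and 711 ± 102 in Sham (4.18 ± 0.18), followed by Loxl3 (2.77 ± 0.18) and Loxl1 (2.25 ± 0.19).

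Of 12 genes at the fibril surface and in assembly 11 rose (median 2.46). Comp, cartilage oligomeric matrix protein (5.73 ± 0.31), the proteoglycan Fmod, fibromodulin (5.35 ± 0.26), and the fibril-associated collagen Col12a1 (4.83 ± 0.15) had the largest differences. Tnxb, tenascin-X, was not called, at 23097 ± 1802 in MI and 23004 ± 3108 in Sham, but was called higher with scaling to the library total (0.32). Of 8 collagen receptors 7 rose (median 0.90), led by Itga11, an integrin subunit of fibroblasts (2.27 ± 0.23), Itga2, another collagen-binding integrin subunit (1.53 ± 0.26), and Mrc2, an uptake receptor for collagen (1.43 ± 0.12). In collagen breakdown and its inhibitors 5 of 8 rose (median 0.92). They included the inhibitor Timp1 (4.32 ± 0.21), the low-level neutrophil collagenase Mmp8 (2.20 ± 0.49) and the gelatinase Mmp2 (1.99 ± 0.14). Mmp8 averaged 46.3 normalised reads in MI and 8.58 in Sham. It passed the minimum mean of the test only through its MI values, so its call is no separate support. Mmp13, the main interstitial collagenase of mice, lay between 65.1 and 103 normalised reads in MI and between 61.4 and 118 in Sham and was not called (adjusted p = 0.736).

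Of 20 regulators of collagen transcription 11 rose and 2 fell (median 0.52). Ccn2, connective tissue growth factor, averaged 65339 ± 19245 in MI and 7658 ± 1938 in Sham (3.08 ± 0.23). Sox9, which drives Col2a1 and Col11a1 in cartilage, had 1623, 665, 1234 and 2154 normalised reads in MI, against 295, 178, 175 and 265 in Sham (2.55 ± 0.32). Tgfb2, a ligand of the TGF-beta family, followed (1.91 ± 0.18). The other listed ligands, Tgfb3 (1.48 ± 0.14) and Tgfb1 (0.61 ± 0.13), and the receptors Tgfbr1 (0.86 ± 0.10) and Tgfbr2 (0.59 ± 0.08) also rose. Sox6 (-0.40 ± 0.13) and Nfyc, an NF-Y subunit (-0.26 ± 0.08), fell. Neither call held with scaling to a library total, where Nfyc was at 0.05. Smad2, Smad3, Smad4, Sp1, Nfya and Nfyb, whose products bind elements such as those searched in the promoters or carry TGF-beta signals, were not called, with log2 differences between -0.09 and 0.16. With scaling to the library total, Smad2 (0.33), Smad4 (0.21), Sp1 (0.33), Nfya (0.47) and Nfyb (0.27) were called higher, as were 8569 of 19245 loci.

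**Figure D5:**
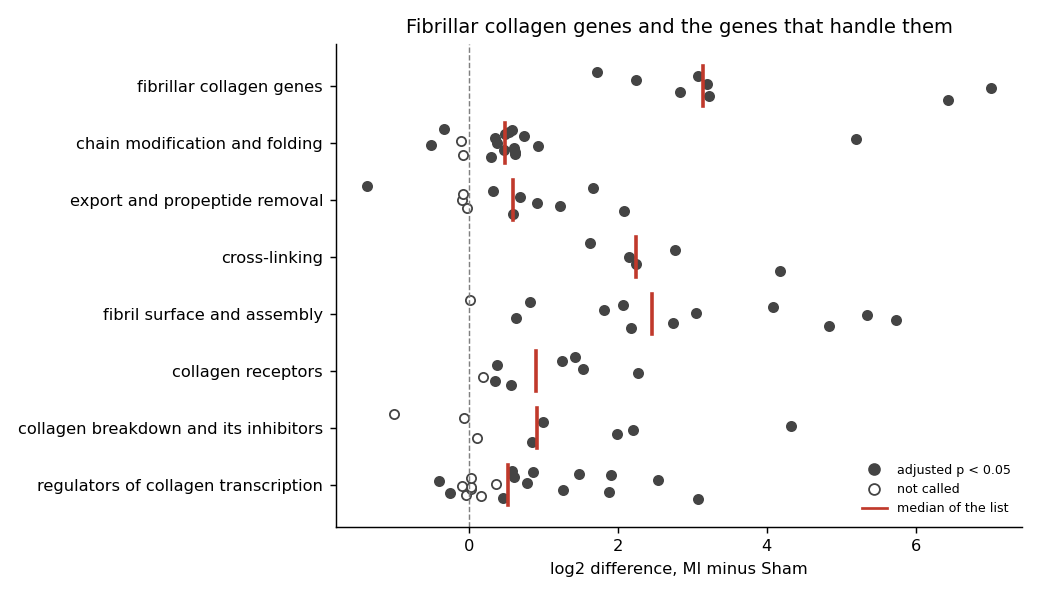
Log2 difference, MI minus Sham, of each tested gene in the fibrillar collagen list and in the lists of genes that handle or regulate collagen, filled where the adjusted p was under 0.05, with the list's median as a red line. The medians lie between 0.49 for chain modification and folding and 3.14 for the fibrillar collagen genes.

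Markers of cell types were followed beside the collagen genes. Their counts stand beside 20.8% of all loci called higher and 20.1% called lower. Of 5 fibroblast markers 4 rose, Lum (1.81 ± 0.12), Tcf21 (1.03 ± 0.25), Dpt (0.66 ± 0.11) and Pdgfra (0.50 ± 0.09), and Gsn was not called (-0.08 ± 0.10). Their summed level was 170480.0 to 219913 normalised reads in MI and 165969 to 184757 in Sham. Gsn, the marker not called, made up most of this sum, with 149203 ± 19048 in MI and 157102 ± 8361 in Sham. The sum therefore says little about the 4 markers that rose. Macrophage markers rose in 4 of 4 cases, and their sum was 23748 to 31446 in MI and 13255 to 19684 in Sham. Of 3 cardiomyocyte markers 1 fell, Ryr2 (-0.67 ± 0.20), and none of 4 endothelial markers was called. With scaling to the library total Ryr2 was no longer called (-0.37, adjusted p = 0.147), while the endothelial markers Pecam1 (0.50), Cdh5 (0.50) and Tie1 (0.40) were called higher and Gsn turned positive (0.23). Without the mitochondrial genome in that total, Ryr2 was at -0.48 (adjusted p = 0.0688), the same 3 endothelial markers were called higher, and Gsn was at 0.11 and not called. Scaling to the library total called 8569 of 19245 loci higher, and 6389 of 19226 without the mitochondrial genome. The smooth muscle and pericyte markers Cnn1 (1.25 ± 0.20) and Acta2 (0.57 ± 0.16) rose among 5, and the groups overlapped for Acta2. Pdgfrb (0.44 ± 0.17), Myh11 (-0.31 ± 0.14) and Rgs5 (-0.12 ± 0.07) were not called. Of 3 markers of epicardium or mesothelium, Upk3b (3.33 ± 1.14) and Msln (2.52 ± 0.79) rose, with most of their signal in MI replicate 3, at 1846 and 1347 normalised reads. Neither of 2 Schwann cell markers was called, although Sox10 was called lower with upper-quartile scaling (-0.77). Their part in the change of the collagen genes was not tested.

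Beside Col2a1 and Col11a1, chondrocyte markers rose in 3 of 4 tested cases, Acan (4.21 ± 0.25), the low-level Matn3 (4.11 ± 0.61) and Chad (2.26 ± 0.33). Over all loci 20.8% were called higher. Matn3 averaged 34.6 normalised reads in MI and 1.71 in Sham. It passed the minimum mean of the test only through its MI values, so its call is no separate support. Hapln1 was not called (1.45 ± 0.57, adjusted p = 0.0645), but was called higher with scaling to the library total (1.73) or to that total without the mitochondrial genome (1.63). Acan, aggrecan, had 571, 466, 355 and 650.1 normalised reads in MI, against 31.0, 22.8, 18.2 and 34.7 in Sham. Other defining markers were at or near 0. Matn1 did not exceed 4.12 in MI or 2.39 in Sham, and Snorc was at 0 in all libraries but MI replicate 1, with 0.663. Col9a1 had 7.95 to 16.6 normalised reads in MI and 0 to 1.58 in Sham. The 7 chondrocyte markers with a locus of their own summed to 656 to 1201 in MI and to 75.2 to 172 in Sham. The part of these cells or of this programme in the rise of Col2a1 and Col11a1 was not tested.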

How the data were processed

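Border-zone RNA was extracted in Trizol and enriched for poly(A), and read ends of 100 bases were sequenced in pairs, per the labels' protocols. The submitters' processing notes name TopHat2 2.0.5, Cufflinks 2.0.2, HTSeq 0.5.4p2, DESeq and build mm9. Neither their settings nor the strandedness of the libraries is stated there. The authors deposited a normalised signal per locus and sample. Of these values 100% were whole multiples of what 1 read is worth in their library (tolerance 1e-06), so reads were recovered by division.

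Loci were named where exon and intron lengths equalled those of a GENCODE M21 gene on the same chromosome and strand, with starts in order within 200000 bases (20091 of 35299 named, 488 with several genes). No coordinate was carried between builds. The main test was limma 3.58.1 with trend (R 4.3.3) on log2(value + 1) for 19186 loci with a mean of at least 10, 2-sided, threshold 0.05. Alternatives used edgeR 4.0.16 quasi-likelihood, DESeq2 1.42.0 and voom on the recovered reads, other scalings, filters and pseudocounts, thinning, and leaving out each library. The fit was tested on simulated data. Ratios and permutation tests used numpy 2.4.6 under Python 3.11.15, and the counting intervals used scipy 1.17.1. Of the genes listed, 14 had no locus of their own. Members and lists were chosen with earlier results of these data known. Genes were named as the 8 members, at most 3 called genes of largest change per list and those moving against it, and the 5 most alike; other genes with a value in the text were added after their values were seen. The series text calls the 4 samples per group biological replicates.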

Additional observations from a re-analysis of the deposited data

How the results depend on the processing

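All 8 members kept their direction and their call in each of the 22 alternative fits, with a highest adjusted p of 6.81e-04. Log2 differences then ran between 5.49 and 7.58 for Col2a1, 6.02 and 6.73 for Col11a1, and 1.59 and 2.03 for Col5a3. The edgeR test on recovered reads called 4288 loci higher and 3649 lower, against 3999 and 3855 with limma. Scaling to the library total shifted the median log2 difference to 0.29 and called 8569 higher and 1493 lower. It also gave 17 higher and 0 lower regulators and 1 lower gene of chain modification. Total scaling without the mitochondrial genome (median 0.17) gave 6389 and 2142, with 0 lower regulators and 1 lower gene of chain modification. With voom 1 regulator was lower. With 1 library left out, 0 to 2 regulators were lower (0 without MI replicate 3 or Sham replicate 4, and 1 without MI replicate 1 or 4 or Sham replicate 1 or 2), and 0 to 1 breakdown genes (1 without MI replicate 2).

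With 1 library left out, the ratio differences ran between -0.49 and -0.33 for Col1a2/Col1a1, -1.10 and -0.86 for Col5a1/Col1a1, 0.78 and 0.89 for Col5a2/Col5a1, 3.93 and 4.55 for Col11a1/Col5a1, and 2.89 and 3.69 for Col11a1/Col1a1. The sum of the members was 7.00 to 8.92 times higher with 1 library left out, and up to 9.83 times with scaling to the library total. Col2a1/Col11a1 was at -0.54 with pseudocount 5 and 1.08 with 0.5. The labels do not say that a replicate number marks a shared animal or batch. The deviations of same-numbered libraries correlated at 0.15, 0.27, 0.16 and -0.00092, and 3 of 4 MI libraries correlated best with their own number. With no pairing stated in the labels, the main test treated the libraries as unpaired. These correlations do not settle the question, and pairing remains possible. A replicate block gave 4152 higher and 4056 lower loci and 1 lower breakdown gene. Paired sign flips as a replicate block kept the ratio differences at -0.39, -0.97, 0.83, 4.19 and 3.21, but with 4 pairs cannot give an exact p under 0.125 (adjusted p = 0.2). Depth limits the Sham levels of Col2a1 and Col11a1.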
